A study of Mus musculus with 2 samples.

Results

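The 10 glycolysis genes Slc2a1, Hk1, Hk2, Pfkl, Aldoa, Gapdh, Pgk1, Eno1, Pkm and Ldha were followed across the epithelial cells of the mouse lung at embryonic day 15. They were chosen by symbol and occupy 11 of the 31053 listed gene rows, because Aldoa has 2 rows, the second of which held 1 UMI (unique molecular identifier, a tag that counts each captured RNA molecule once). Lung epithelial cells were purified by flow sorting from control embryos and captured on the 10x Chromium 3′ platform, chemistry version 2. The series also holds 1 library from embryos that lack LEF/TCF factors; its expression was not analysed here, so every value below comes from the 1 control library. The labels give the genotype of this library only as control, and name neither a Cre driver nor the number of embryos pooled. With 1 library there is no replicate. All intervals are 95% intervals for counting error only (exact Poisson for levels, exact conditional for ratios, Clopper-Pearson for shares), and no difference between classes was tested across samples.

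Glycolysis splits glucose into pyruvate in the cytosol. Glucose carriers bring the sugar in, hexokinases trap it as glucose 6-phosphate, and phosphofructokinase commits it to breakdown. Aldolase cleaves the sugar, glyceraldehyde 3-phosphate dehydrogenase and phosphoglycerate kinase yield the first ATP, and enolase and pyruvate kinase complete the path. Lactate dehydrogenase turns pyruvate into lactate and restores NAD+, so that the path can run without respiration. Proliferating and hypoxic cells are known for high flux through it, and many of its genes carry hypoxia response elements.

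After removal of barcodes with fewer than 1000 genes or more than 10% mitochondrial UMIs, 3457 of 3568 barcodes remained, with a median of 12826 UMIs per cell. Clusters were built without the glycolysis genes, the other metabolic lists and the cell-cycle lists. They were named from marker genes by a rule written after the clusters had been seen. The 4 classes described here held 3350 cells: 639 airway-like cells, 1293 distal progenitor-like cells, 625 alveolar type 2-like cells and 793 cells in clusters led by Smoc2. Sox2, the airway factor, stood at 148 CPM (a gene's UMIs per 1000000 UMIs of its class) in airway-like cells and at 3.34 in distal progenitor-like cells. Sox9, which marks the distal tips, stood at 30.5 and 169 CPM in the same order. The 8 distal markers summed to 564 CPM in airway-like, 3418 in distal progenitor-like, 2759 in Smoc2-led and 4031 in alveolar type 2-like cells. They thus set airway-like cells apart, but do not mark distal progenitor-like cells off from alveolar type 2-like cells. The 9 alveolar type 2 markers summed to 211 CPM in alveolar type 2-like and 135 in distal progenitor-like cells. The surfactant genes Sftpb, at 70.4 against 36.2 CPM, and Sftpa1, at 72.3 against 38.2, were higher in the former. Abca3, at 7.49 against 9.95 CPM, was not, and the mature markers Lyz2 and Slc34a2 stayed at or below 0.458 CPM in both. In the Smoc2-led cells the alveolar type 1 gene Ager reached 85.4 CPM against 44.5 in distal progenitor-like cells, but Pdpn was at 38.6 against 47.9 CPM, Hopx at 4.52 against 3.34 and Aqp5 at 0 in both, too few markers for a cell type name. The 8 airway markers summed to 606 CPM in airway-like, 70.8 in Smoc2-led and 10.3 in distal progenitor-like cells. The airway gene Scgb3a2 stood at 28.2 CPM in the Smoc2-led cluster of 687 cells and at 0.844 in that of 106. The part of airway RNA in the Smoc2-led values was not tested. Summed markers of endothelial, red blood and mesothelial cells stayed at or below 1.61 CPM in each of the 4 classes, with Cdh5 at 0 in all 4. Mesenchymal markers summed to 79.6 CPM in airway-like, 165 in distal progenitor-like, 189 in Smoc2-led and 271 in alveolar type 2-like cells, against 2049 in mesenchymal-like cells. Vim gave 58.8 to 270 CPM of these sums, while Col1a1 stayed at or below 0.529 CPM. Dcn, another mesenchymal marker, stood at 19.2 CPM in airway-like and 3.98 in Smoc2-led cells. It stood at 0.262 CPM in distal progenitor-like and 0 in alveolar type 2-like cells. Neuroendocrine markers summed to 60.3 to 105 CPM, of which Uchl1 gave 59.3 to 98.3, with Chgb at 0 in all 4 classes.

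Several quantities moved with the classes, and their part in the results below was not tested. Cells above 14000 UMIs made up 69.4% of alveolar type 2-like and 71.9% of Smoc2-led cells, against 25.4% of airway-like and 22.7% of distal progenitor-like cells. Ribosomal protein genes took 33.8% of UMIs in distal progenitor-like cells and 27.8% in alveolar type 2-like cells. Epcam, an epithelial adhesion gene, stood at 467 CPM in distal progenitor-like cells and at 811 to 1020 CPM in the other 3 classes. Malat1, a nuclear RNA, stood at 9616 CPM in airway-like, 4495 in distal progenitor-like, 4699 in Smoc2-led and 2869 in alveolar type 2-like cells. The median mitochondrial share was 3.28%, 3.02%, 2.48% and 2.13% in the same order. The 6 immune markers summed to 63.1 CPM in distal progenitor-like cells, 58.1 of it from Pf4, and to at most 2.03 CPM in the other classes, with Ptprc at 0 throughout. Cells with 4 or more Xist UMIs and a Y-linked UMI, a mixture that 1 mouse cell should not hold, made up 21.4% of Smoc2-led cells and 1.70% to 4.85% of the others. Doublets were not removed. Each ratio was therefore also taken in cells of at most 14000 UMIs and without the Xist and Y-linked mixtures.

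Together the 10 genes gave 285459 UMIs, 0.532% of the library. Their sum was 3498 CPM in distal progenitor-like cells, 5688 in Smoc2-led cells, 5968 in airway-like cells and 6879 in alveolar type 2-like cells. Gapdh gave 131950 of the 285459 UMIs, Ldha 53252 and Pkm 38651, while Hk2 gave 2134. The sum, here and per cell below, thus mostly follows Gapdh, Ldha and Pkm. Of the 10 genes, 9 were lowest in distal progenitor-like cells. Hk2 was the exception, lowest in airway-like cells and highest in distal progenitor-like cells. The 43 mesenchymal-like cells of the library held 3256 CPM of the 10 genes. UMI levels from 3′ ends are not divided by transcript length, and levels are compared between classes for 1 gene at a time.

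**Figure D1:**
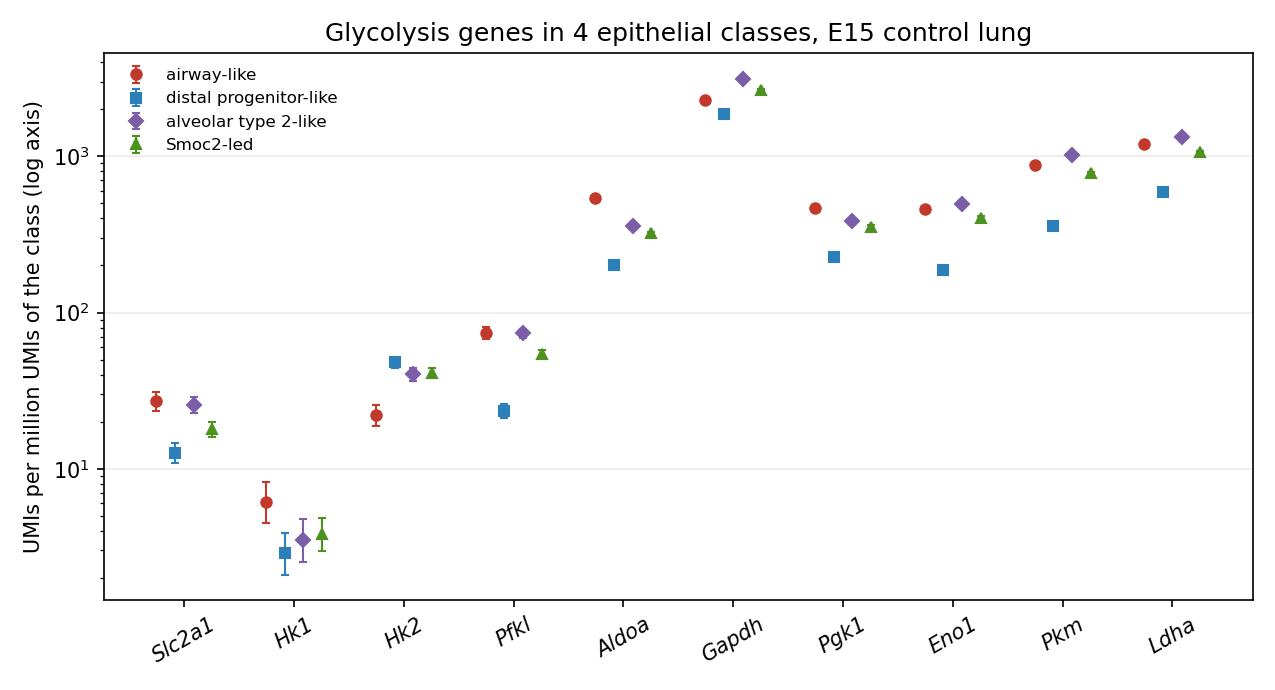
Level of each glycolysis gene (CPM, log axis) in airway-like, distal progenitor-like, alveolar type 2-like and Smoc2-led cells of the control library. Bars are 95% Poisson intervals for counting error; distal progenitor-like cells sit lowest for 9 of 10 genes, and for Hk2 airway-like cells do.

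Glucose entry and trapping came first in the path and showed both directions. Slc2a1 (chromosome 4, 119108711 to 119137983), the glucose carrier GLUT1, stood at 27.1 CPM (23.5 to 31.1) in airway-like cells, 25.7 (22.8 to 28.8) in alveolar type 2-like cells, 17.9 (16.1 to 19.97) in Smoc2-led cells and 12.6 (10.9 to 14.5) in distal progenitor-like cells. The highest pair did not differ beyond counting error, and the others did. Hk2 (chromosome 6, 82725025 to 82774454), the inducible hexokinase, stood at 47.9 CPM (44.5 to 51.5) in distal progenitor-like cells, 41.2 (38.3 to 44.2) in Smoc2-led cells, 40.1 (36.5 to 44.0) in alveolar type 2-like cells and 22.1 (18.9 to 25.7) in airway-like cells. Distal progenitor-like cells thus held the most Hk2 and airway-like cells the least, with alveolar type 2-like and Smoc2-led cells between and not apart from each other. Hk1 (chromosome 10, 62268855 to 62379908), the hexokinase of most adult tissues, was scarce, with 201 UMIs over the 4 classes and 2.88 to 6.16 CPM. Its neighbouring classes overlapped throughout, and only its lowest class, distal progenitor-like, and its highest, airway-like, had separate intervals.

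Pfkl (chromosome 10, 77986947 to 78010083), the liver-type phosphofructokinase that catalyses the committed step, had the largest spread of the 10 between its highest and lowest class, 3.13 times. It stood at 73.8 CPM (67.8 to 80.2) in airway-like cells, 73.5 (68.6 to 78.7) in alveolar type 2-like cells, 54.0 (50.7 to 57.5) in Smoc2-led cells and 23.6 (21.2 to 26.1) in distal progenitor-like cells. Airway-like and alveolar type 2-like cells did not differ in Pfkl beyond counting error. Aldoa (chromosome 7, 126795234 to 126800751), the aldolase of muscle and most other tissues, stood at 540 CPM (524 to 557) in airway-like cells, 359 (348 to 370) in alveolar type 2-like cells, 321 (313 to 329) in Smoc2-led cells and 202 (195 to 209) in distal progenitor-like cells. All 4 Aldoa intervals were separate.

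The 3 genes of the ATP-yielding stretch kept distal progenitor-like cells at the bottom but differed in which class was on top. Gapdh (chromosome 6, 125161715 to 125166467), which makes NADH and 1,3-bisphosphoglycerate, stood at 3140 CPM in alveolar type 2-like cells, 2655 in Smoc2-led cells, 2302 in airway-like cells and 1851 in distal progenitor-like cells. It was the gene that varied least, 1.70 times from lowest to highest. Pgk1 (chromosome X, 106187100 to 106203699), which makes the first ATP, stood at 469 CPM in airway-like cells, 388 in alveolar type 2-like cells, 354 in Smoc2-led cells and 226 in distal progenitor-like cells. Eno1 (chromosome 4, 150236721 to 150248879), the ubiquitous enolase, stood at 497 CPM in alveolar type 2-like cells, 457 in airway-like cells, 405 in Smoc2-led cells and 187 in distal progenitor-like cells. For these 3 genes no intervals of neighbouring classes overlapped.

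The last steps were both highest in alveolar type 2-like cells. Pkm (chromosome 9, 59656368 to 59679375), pyruvate kinase, stood at 1025 CPM (1006 to 1043) in alveolar type 2-like cells, 877 (856 to 899) in airway-like cells, 778 (765 to 791) in Smoc2-led cells and 358 (348 to 367) in distal progenitor-like cells. Counts over the 3′ end do not separate its M1 and M2 splice forms. Ldha (chromosome 7, 46841475 to 46855627), the lactate-forming dehydrogenase subunit, stood at 1328 CPM (1307 to 1350) in alveolar type 2-like cells, 1194 (1169 to 1219) in airway-like cells, 1058 (1043 to 1072) in Smoc2-led cells and 587 (575 to 599.5) in distal progenitor-like cells. For both genes all 4 intervals were separate, with Smoc2-led and airway-like cells in between. Positions are from GENCODE M21 (GRCm38, the build the submitters name mm10).

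Copies of some of these genes could take or lose reads. Of the 31-base words in the last 400 bases of a Gapdh coding transcript, at least 50% recur in transcripts of 51 other annotated genes, nearly all processed pseudogenes, of which 2 are listed and hold 14 UMIs. The Eno1 end recurs fully in Eno1b, which is listed with 172 UMIs, and in 1 unlisted pseudogene. Reads that match both places may be absent from the counts, so the levels of Gapdh and Eno1 are uncertain in a way that those of Slc2a1, Hk1, Hk2, Pfkl and Pgk1, which share 10% or more of these words with no other gene, are not. Between them lie Pkm, with 50.3% shared with 1 unlisted pseudogene, Ldha, with at most 38.8%, and Aldoa, with at most 37.0%.

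The start regions are shown for Hk2, which ran opposite to the rest, and for Pgk1, Gapdh and Ldha, which were low in distal progenitor-like cells. Each is the 250 bases before a RefSeq start (GRCm38.p6), written 5′ to 3′ on the gene's strand. None of these 4 windows overlaps an annotated exon. Capitals mark ACGTG or GCGTG on either strand (read as CACGT or CACGC on the other), the core of the hypoxia response element. For Ldha, the first of its 2 windows is shown. The second holds 0 ACGTG and 1 GCGTG, and of the 2 Ldha starts only the second was found at the start of a GENCODE transcript.
Hk2, chr6:82774455-82774704, minus strand: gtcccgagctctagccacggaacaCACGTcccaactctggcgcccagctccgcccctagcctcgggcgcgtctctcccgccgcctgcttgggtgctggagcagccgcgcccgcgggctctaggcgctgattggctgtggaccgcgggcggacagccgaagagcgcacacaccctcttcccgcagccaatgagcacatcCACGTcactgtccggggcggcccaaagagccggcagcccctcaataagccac
Pgk1, chrX:106186850-106187099, plus strand: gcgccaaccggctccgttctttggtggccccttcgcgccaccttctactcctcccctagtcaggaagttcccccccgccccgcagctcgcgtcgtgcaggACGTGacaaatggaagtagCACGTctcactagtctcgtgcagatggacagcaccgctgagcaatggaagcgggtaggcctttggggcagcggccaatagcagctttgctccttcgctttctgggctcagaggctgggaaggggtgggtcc
Gapdh, chr6:125165774-125166023, minus strand: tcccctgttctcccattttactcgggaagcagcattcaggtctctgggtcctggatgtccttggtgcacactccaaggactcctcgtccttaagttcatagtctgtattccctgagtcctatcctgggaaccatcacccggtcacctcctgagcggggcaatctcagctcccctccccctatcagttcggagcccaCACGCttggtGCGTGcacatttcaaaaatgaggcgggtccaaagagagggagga
Ldha, chr7:46845554-46845803, plus strand: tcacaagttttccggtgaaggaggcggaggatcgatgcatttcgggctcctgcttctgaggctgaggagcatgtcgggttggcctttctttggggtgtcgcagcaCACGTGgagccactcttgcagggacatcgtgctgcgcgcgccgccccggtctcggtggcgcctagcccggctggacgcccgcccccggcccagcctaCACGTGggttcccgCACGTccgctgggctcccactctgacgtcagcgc
Hk2 and Pgk1 each hold 2 marked runs, all of the ACGTG form. Gapdh holds 2, both of the GCGTG form. The Ldha window shown holds 3, of which 2 are full CACGTG E-boxes, a motif that contains ACGTG on both strands. Among 32536 distinct start windows of the same length, 16.7% hold ACGTG, 28.3% hold GCGTG and 6.04% hold CACGTG. Of the 17 windows of the 10 genes, 7 hold ACGTG, 8 hold GCGTG and 1 holds CACGTG. Some windows of Aldoa and of Eno1 overlap and count the same site again. By gene, 6 of 10 have ACGTG in a window and 6 of 10 have GCGTG. A gene with several windows has more chances of a match, and no share by gene was taken over all genes. The counts by gene therefore cannot be set against the shares of single windows. The ACGTG core is thus present for Hk2 and also for Pgk1 and in 1 of the 2 Ldha windows, although both genes ran opposite to Hk2. A match is only a description of the letters.

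Distal progenitor-like cells were set against airway-like cells to ask how the path differs along the proximal to distal axis. Of the 10 genes, 8 were lower in distal progenitor-like cells by 1.5-fold or more, 1 was higher (Hk2) and 1 lay between (Gapdh). Of the 10514 genes that reached 50 UMIs in the 2 classes together, 24.0% were lower and 6.85% higher by that much, 30.9% in all. Pfkl had the lowest ratio at 0.319 (0.279 to 0.365), followed by Aldoa at 0.374 (0.357 to 0.392), Pkm at 0.408 (0.393 to 0.423) and Eno1 at 0.410 (0.390 to 0.432). Pgk1 was at 0.482, Ldha at 0.492, and Slc2a1 and Hk1 were both at 0.47. Gapdh was at 0.804 (0.789 to 0.820), and Hk2 was at 2.17 (1.83 to 2.58). The median log2 ratio of the 10 genes was -1.10, beside -0.22 over all genes tested. Because that median lies below 0, ratios were also scaled by it: the members' count stayed at 9 past 1.5-fold, while the share of all genes that were lower became 14.9% and the share that were higher 11.7%.

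**Figure D2:**
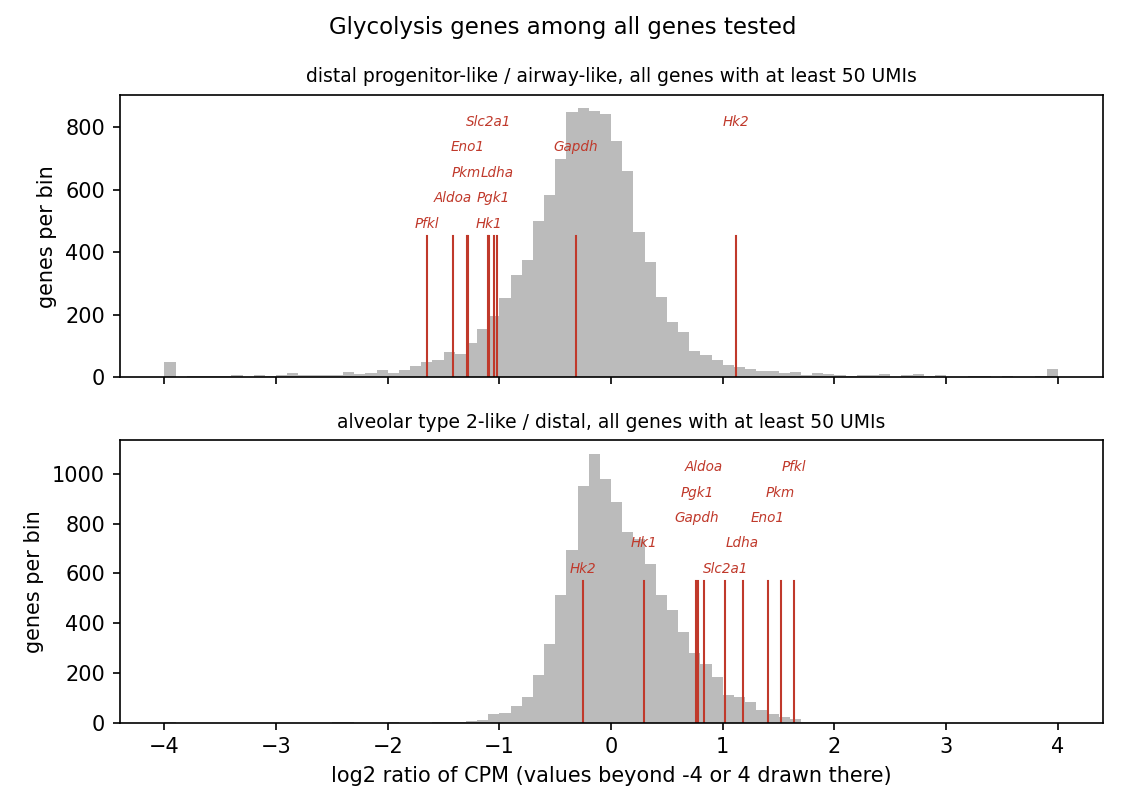
Number of genes (vertical axis) by log2 ratio of CPM (horizontal axis) for all genes tested (50 UMIs or more), with the glycolysis genes as red lines: above, distal progenitor-like over airway-like; below, alveolar type 2-like over distal progenitor-like. Hk2 lies on the opposite side from Pfkl, Pkm and Eno1 in both panels.

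The size of this difference rested on how distal cells were defined. In cells thinned to 5000 UMIs, 1259 had a Sox9 UMI and no Sox2 UMI, and 318 had the reverse. When these were compared, with no clustering, 3 of the 10 genes passed 1.5-fold instead of 9, 1 higher and 2 lower. Of all genes, 6.38% were higher and 14.5% lower in that comparison, so the members' count was near the background. Aldoa stayed lower at 0.587 (0.558 to 0.617) and Hk2 stayed higher at 1.61 (1.33 to 1.97). Hk1 was at 0.655 (0.400 to 1.11), an interval that includes 1. Pfkl was at 0.675, Pgk1 at 0.737, Ldha at 0.850, and Gapdh at 1.09 lay on the other side of 1. Sox9 stood at 162 CPM in alveolar type 2-like and 130 CPM in Smoc2-led cells, near the 169 CPM of distal progenitor-like cells, so a Sox9 UMI does not set these classes apart. Between the clustered classes, cells of at most 14000 UMIs gave ratios close to those of all cells, with Pfkl at 0.313, Pkm at 0.395 and Hk2 at 2.26.

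Distal progenitor-like cells were themselves uneven. One of their 2 clusters, of 625 cells, held 277 CPM of Epcam and 36.4% ribosomal protein UMIs, and the other, of 668 cells, held 632 CPM and 31.6%. Ldha stood at 400 CPM in the first and 749 in the second, Gapdh at 1468 and 2182, Pkm at 279 and 426, and Eno1 at 146 and 224. Pgk1 hardly differed, at 221 and 231 CPM. Hk2 stood at 52.3 CPM (47.1 to 57.9) in the cluster with less Epcam and 44.0 (39.6 to 48.8) in the other. These intervals overlapped at their ends, and no interval was taken for the ratio, so a difference is left undecided. With the second cluster alone, Gapdh was at 0.948 of its airway-like level, Ldha at 0.628 and Pfkl at 0.369, and 9 of 10 genes still passed 1.5-fold, 8 of them lower, beside 20.7% of all genes lower and 6.28% higher. Within the whole class, 224 of 1262 cells had no Epcam UMI after every cell was thinned to 5000 UMIs. In those cells Ldha stood at 425 CPM, against 620 in cells with an Epcam UMI, while the intervals of Hk2, at 53.1 and 46.8 CPM, overlapped.

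Alveolar type 2-like cells, which lean toward the surfactant-making type, were set against distal progenitor-like cells. Of the 10 genes, 8 were higher by 1.5-fold or more and 0 were lower, against 14.8% and 4.79% of the 10478 genes tested (19.6% in all). Pfkl was 3.12 times higher (2.75 to 3.54), Pkm 2.86 times (2.77 to 2.96), Eno1 2.65 times (2.53 to 2.77), Ldha 2.26 times (2.20 to 2.32) and Slc2a1 2.03 times (1.69 to 2.45). Aldoa, Pgk1 and Gapdh were 1.78, 1.71 and 1.70 times higher. Hk1 was at 1.22 (0.777 to 1.92), which includes 1, and Hk2 was at 0.838 (0.744 to 0.943). The median log2 ratio of the 10 genes was 0.93, beside 0.03 over all genes tested. Pfkl ranked above 99.8% of all genes tested in this ratio, and Pkm above 99.6%. When UMI totals were taken without mitochondrial and ribosomal protein genes, the background became 9.73% higher and 10.25% lower, and the members' count stayed at 8. Against the distal cluster with more Epcam alone, 7 passed, since Gapdh came to 1.44. In cells of at most 14000 UMIs, Pfkl was 3.31 times higher, Pkm 3.04 times and Ldha 2.36 times.

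Smoc2-led cells were compared with distal progenitor-like cells in the same way. Of the 10 genes, 6 were higher by 1.5-fold or more and 0 were lower, against 13.3% and 1.85% of 11016 genes tested (15.2% in all). Pfkl was 2.29 times higher (2.03 to 2.59), Pkm 2.18 times (2.11 to 2.24), Eno1 2.16 times (2.07 to 2.26), Ldha 1.80 times, Aldoa 1.59 times and Pgk1 1.56 times. Gapdh at 1.43, Slc2a1 at 1.42 and Hk1 at 1.33 stayed under the limit, and Hk2 was at 0.861 (0.777 to 0.954). The median log2 ratio was 0.66, beside 0.15 over all genes. After scaling by that median 4 genes passed, with the background at 7.90% higher and 3.40% lower, and 4 passed against the distal cluster with more Epcam alone, beside 9.92% of all genes higher and 1.69% lower. The class consists of a cluster of 687 cells, 81.7% of them above 14000 UMIs and 24.7% of them with the Xist and Y-linked mixture, and a cluster of 106 cells with 8.49% and 0%. In the smaller cluster the genes were further from distal progenitor-like cells: Pfkl was 3.76 times higher (2.995 to 4.68), Pkm 3.28 times (3.09 to 3.48), Eno1 3.23 times (2.97 to 3.51), and Hk2 was at 0.635 (0.441 to 0.887). There, 8 of the 9 genes tested passed 1.5-fold upward and Hk2 passed it downward, beside 18.2% and 21.4% of all genes. Without the mixtures in any class 8 of 10 passed upward, beside 14.3% of all genes. In cells of at most 14000 UMIs 8 of 9 did, beside 16.9%.

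**Figure D3:**
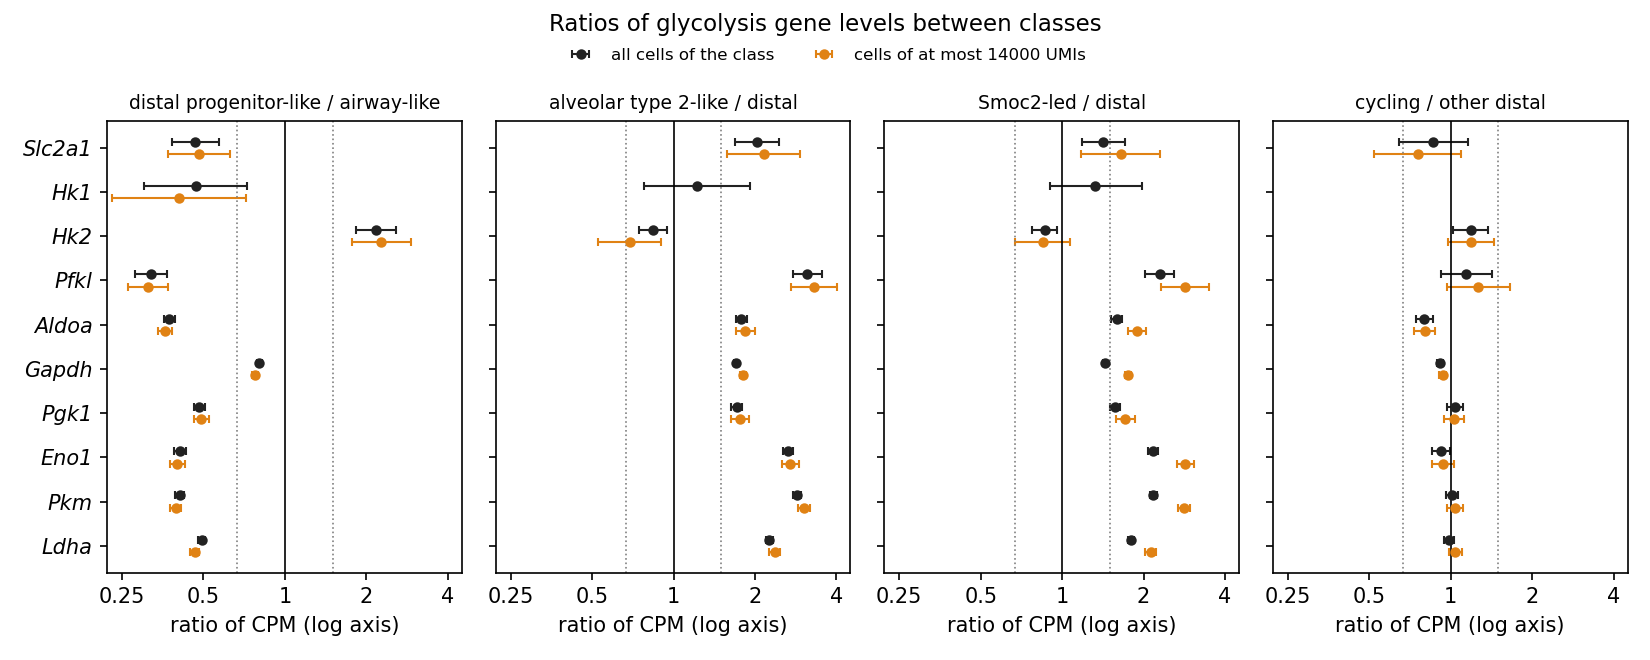
Ratio of CPM (log axis) for each glycolysis gene in 4 comparisons, in all cells of the classes and in cells of at most 14000 UMIs. Bars are 95% intervals for counting error and dotted lines mark 1.5-fold; the 6 genes Pfkl, Aldoa, Pgk1, Eno1, Pkm and Ldha pass it in the first 3 panels with either set of cells, and in the fourth none of the 9 genes with 50 UMIs or more does.

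Within distal progenitor-like cells, cycling cells were set apart by at least 1 UMI of Mki67 or Top2a after thinning to 5000 UMIs. This gave 649 cycling cells, 309 of them with exactly 1 such UMI, and 613 other cells. Mitosis genes of the G2/M list, which includes Mki67 and Top2a, summed to 7751 CPM in the cycling cells and 5034 in the others. The S-phase list of DNA replication genes summed to 2465 and 2391 CPM in the same order. The split thus follows G2/M genes and hardly S-phase genes, and the other cells cannot be read as non-cycling. Of the 10 genes, 9 had enough UMIs (Hk1 did not), and 0 of these 9 differed by 1.5-fold or more, where 5.15% of 9480 genes were higher and 1.28% lower by that much (6.42% in all). Aldoa was lower in cycling cells, at 181 against 227 CPM (ratio 0.798, 0.743 to 0.857). Gapdh was at 0.912 (0.891 to 0.934) and Eno1 at 0.920 (0.854 to 0.991). Hk2 was higher, at 51.5 against 43.5 CPM (ratio 1.18, 1.02 to 1.38), but its ratio was 0.959 with stricter cell filters. Ldha, Pkm and Pgk1 had ratios of 0.984, 1.01 and 1.04, each with an interval that includes 1.

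Shares within isozyme groups do not depend on the total of a class. Hk2 made up 89.5% (87.2 to 91.5) of hexokinase UMIs in distal progenitor-like cells, 87.8% (84.7 to 90.5) in alveolar type 2-like cells, 85.1% (82.6 to 87.4) in Smoc2-led cells and 63.0% (56.8 to 68.8) in airway-like cells. Airway-like hexokinase came to 262 UMIs in all, of which Hk1 made up 17.6% (13.2 to 22.7). Hk1 made up 5.39% (3.94 to 7.16) in distal progenitor-like cells. Pfkl made up 93.1% (91.2 to 94.7) of phosphofructokinase UMIs in alveolar type 2-like cells and 82.6% (78.7 to 86.0) in distal progenitor-like cells, where the muscle-type Pfkm took 14.2%. Ldha took 85.7% (85.0 to 86.4) of lactate dehydrogenase UMIs in airway-like cells, 82.4% (81.7 to 83.1) in distal progenitor-like cells, 80.9% (80.3 to 81.4) in alveolar type 2-like cells and 80.5% (80.0 to 81.0) in Smoc2-led cells. Nearly all of the remainder was Ldhb, the subunit that favours pyruvate. Aldoa was at least 99.2% of aldolase UMIs and Eno1 at least 96.5% of enolase UMIs in each class.

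**Figure D4:**
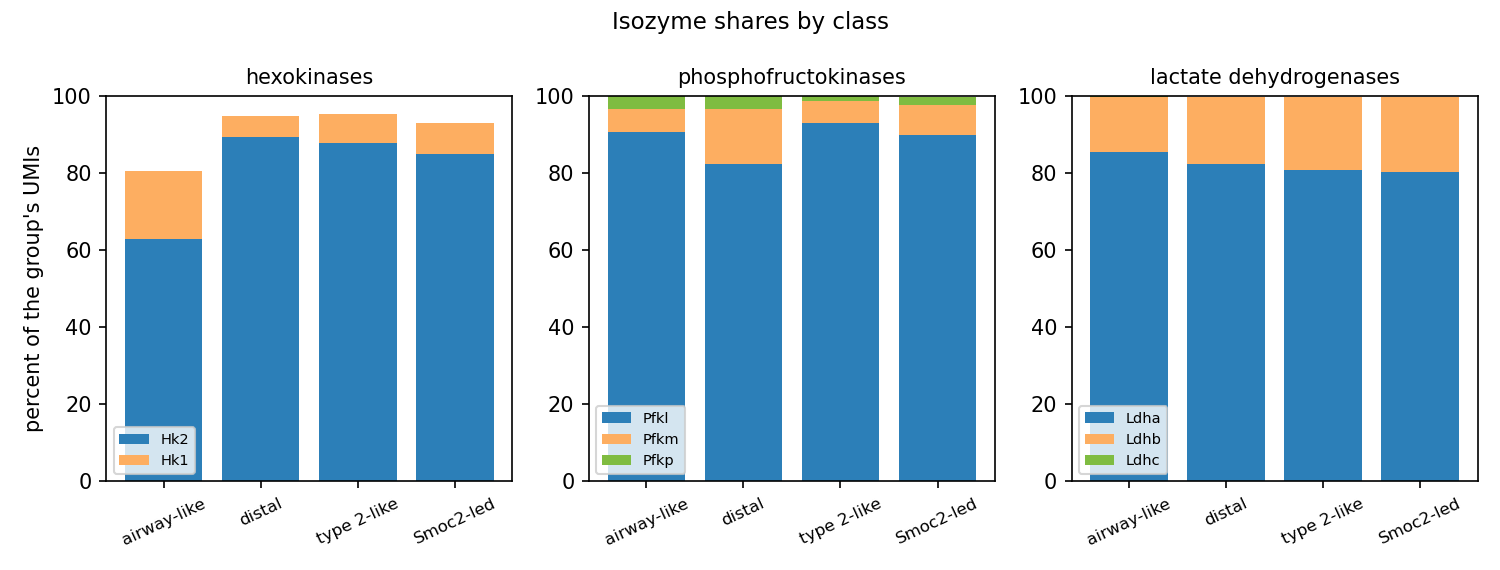
Share (percent) of each isozyme among the UMIs of its group in the 4 classes, for hexokinases, phosphofructokinases and lactate dehydrogenases. In the hexokinase panel only Hk2 and Hk1 are drawn, so its bars end below 100%. The Hk2 share is 63.0% in airway-like cells and 85.1% to 89.5% in the other 3 classes.

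The other genes of the path and its neighbours were counted from lists chosen for their function. Of 28 further glycolysis genes, 11 had enough UMIs for the comparison of distal progenitor-like with airway-like cells, and 6 were lower and 1 higher by 1.5-fold or more, against 24.0% and 6.85% of all genes. Tpi1, triose phosphate isomerase, was among the lowest at 0.522 (0.503 to 0.541), and Tigar, a fructose bisphosphatase that slows the path, was the highest at 1.69 (1.04 to 2.85). In alveolar type 2-like against distal progenitor-like cells, 7 of 12 were higher and 1 lower, against 14.8% and 4.79% of all genes. Ldhb was 2.50 times higher (2.37 to 2.65), and Pfkfb3, which makes the activator of phosphofructokinase, was at 0.641 (0.429 to 0.945). In Smoc2-led against distal progenitor-like cells, 4 of 14 were higher and 0 lower, against 13.3% and 1.85% of all genes.

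Of 19 genes tested for the fate of pyruvate and lactate, 7 were lower and 1 higher in distal progenitor-like than in airway-like cells, against 24.0% and 6.85% of all genes, so the share that was higher is near the background. The one that was higher was Slc16a1, the lactate carrier MCT1, at 22.7 against 9.11 CPM (ratio 2.49, 1.92 to 3.29). Slc16a3, the lactate exporter MCT4, was the lowest of the list, at 8.64 against 18.6 CPM (ratio 0.464, 0.363 to 0.593). Pdk1, a kinase that keeps pyruvate out of the mitochondrion, was at 0.484 (0.407 to 0.574). The 2 lactate carriers thus ran in opposite directions.

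The tricarboxylic acid cycle burns what glycolysis delivers. Of the 18 genes listed for it, 9 were lower by 1.5-fold in distal progenitor-like than in airway-like cells. Higher ones numbered 0 (all genes: 24.0% lower and 6.85% higher). The list also counts Mdh1, the cytosolic malate dehydrogenase, which is not the enzyme of the cycle itself. It was at 0.404 (0.380 to 0.429). In alveolar type 2-like against distal progenitor-like cells, 12 of 18 were higher (all genes: 14.8%). Fh1 was at 2.71 there, and the cytosolic Mdh1 at 2.76 (2.62 to 2.92). The median log2 ratio of these 18 genes was 0.89 there, near the 0.93 of the 10 glycolysis genes. Of the 9 pentose phosphate genes, 4 were higher in alveolar type 2-like cells by 1.5-fold, beside the same 14.8%, led by Tkt at 2.12 (1.98 to 2.26). Of the hypoxia response genes, 1 of 19 was higher and 1 lower in alveolar type 2-like cells, against 14.8% and 4.79% of all genes, and their median log2 ratio was -0.01. Vegfa, a hypoxia-induced vessel factor, was at 0.634 (0.455 to 0.876) and P4ha2, a collagen prolyl hydroxylase, at 2.26 (1.502 to 3.42). Against airway-like cells, 8 of 19 hypoxia response genes were lower in distal progenitor-like cells and 1 was higher, where 24.0% and 6.85% of all genes were, with Ddit4 at 0.247 (0.216 to 0.283) and Bnip3 at 0.413, while Mif was at 1.36 and Loxl2 at 1.956.

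At a fixed depth of 5000 UMIs, the sum of the 10 genes in a single cell had a median of 16 UMIs in distal progenitor-like cells (25th to 75th percentile 12 to 21), 29 in airway-like cells (21 to 37), 29 in Smoc2-led cells (23 to 35) and 35 in alveolar type 2-like cells (29 to 41). The class medians differ while the cells overlap. The variance of the sum was 5.14 times its mean in airway-like cells, against 3.32 in distal progenitor-like cells, 2.83 in Smoc2-led cells and 2.34 in alveolar type 2-like cells. This ratio grows with the mean, which was 29.6 UMIs per cell in airway-like, 17.0 in distal progenitor-like, 29.4 in Smoc2-led and 35.2 in alveolar type 2-like cells. The median gene with at least 0.1 UMI per cell had a variance of 1.02 to 1.04 times its mean. Among single genes in airway-like cells the ratio was 2.52 for Ldha, 2.33 for Gapdh and 2.01 for Pkm, but 1.04 for Hk2 and 1.03 for Pfkl, which had means of only 0.109 and 0.372 UMIs per cell. Airway-like cells with a UMI of Scgb3a2, a secretory cell gene, had a median sum of 30, and those without had 28. Aldoa was at 617 CPM in the first and 503 in the second, and Pgk1 at 538 and 440.

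**Figure D5:**
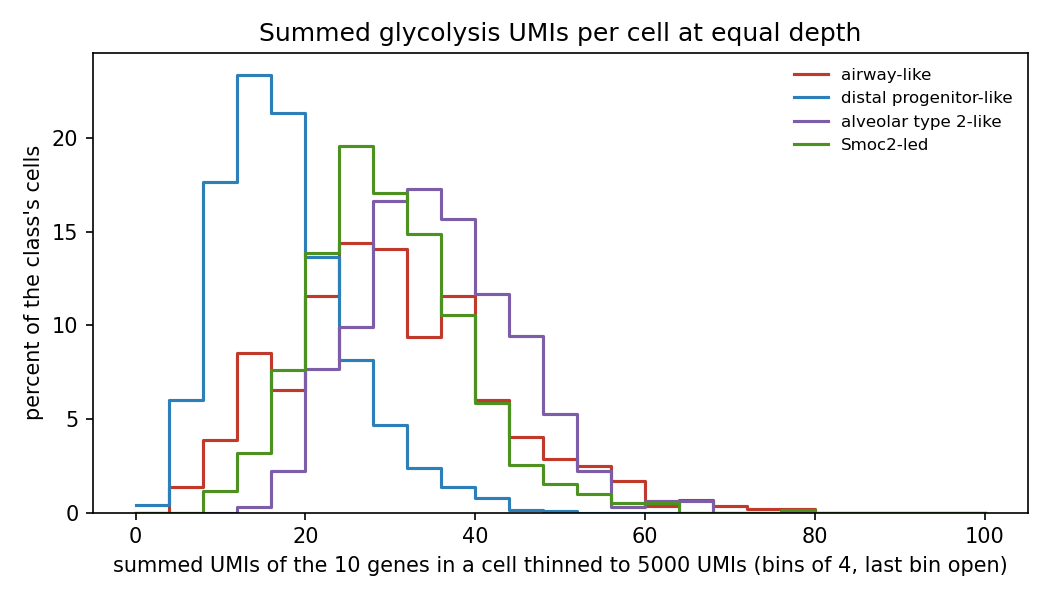
Percent of the cells of each class (vertical axis) by summed UMIs of the 10 glycolysis genes in a cell thinned to 5000 UMIs (horizontal axis). The medians are 16 for distal progenitor-like, 29 for airway-like and Smoc2-led, and 35 for alveolar type 2-like cells, and the distributions overlap.

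The genes whose UMIs followed the summed members most closely from cell to cell were found within each class at 5000 UMIs and averaged over the 4 classes, for 4596 genes and 3270 cells. Tpi1, the one glycolytic step between Aldoa and Gapdh that the members leave out, came first with a mean Pearson r of 0.31. It was followed by Atp5b, a subunit of ATP synthase, at 0.30, Eif4a1, a translation helicase, at 0.29, and Ppia, a prolyl isomerase, at 0.29. Prdx1 at 0.25, Krt8 at 0.25, Hnrnpk at 0.24, Epcam at 0.24, Ubb at 0.23 and Pgam1, phosphoglycerate mutase, at 0.22 completed the first 10. Each of these 10 had its lowest r in alveolar type 2-like cells, from 0.21 for Ppia down to 0.04 for Ubb. Epcam, for one, had 0.36 in airway-like and 0.06 in alveolar type 2-like cells. The lowest mean r of all, -0.22, was that of the ribosomal protein gene Rps19. The median gene had an r of 0.01. Among the members, the pairs of Pkm with Ldha and Gapdh with Ldha had the highest mean r, both 0.27, and Hk2 with Eno1 the lowest, -0.04. These cells share 1 library, and the values are descriptions of it.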

How the data were processed

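The values deposited by the authors for the control library are whole-number UMI counts, 1 per gene row and cell barcode, not normalized. The submitters' processing notes name Cell Ranger, Seurat and mm10, and the software version per the file headers is 3.0.1. Log values scaled to 10000 UMIs per cell, 2000 variable genes outside the metabolic and cell-cycle lists, unit-variance scaling, 20 principal components and 20 neighbours entered Leiden clustering (resolution 0.5, scanpy 1.11.5, leidenalg 0.10.2). Unscaled values were also tried, and the choice was made after both were seen. A cluster took a name from at least 3 markers at 2 times the level of other cells (distal: 1.5 times airway-like cells and a distal marker among its 10 leading genes). A cluster left without a name whose leading genes held Smoc2 joined that class. An unnamed cluster of 36 cells and one of 28 cells with a low mitochondrial share are not described. UMIs were summed per class. Named genes were all 10 members, at most 3 highest and 3 lowest of each list per comparison, isozymes, and the 10 best correlated genes. Members and lists were chosen with earlier results of these data known. Intervals were tried only on simulated Poisson counts. These leave out the extra spread between cells, so the trial does not show how the intervals cover real cells. Both libraries' lists share 29 barcodes, all of them among the cells kept. One isozyme of the hexokinase group is counted in the group's total but is not reported here.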

Additional observations from a re-analysis of the deposited data

How the results depend on the processing

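The counts of members past 1.5-fold kept within 1.5 times their main value except as follows. Defining classes by Sox9 and Sox2 UMIs gave 3 in place of 9, an alternative chosen after the data were seen. A limit of 2-fold gave 5 in place of 8 for alveolar type 2-like cells and 3 in place of 6 for Smoc2-led cells. In cycling against other cells, a minimum of 10 UMIs or none gave 1 (Hk1, lower), and a lower fold limit gave 1 (Aldoa, lower), in place of 0. The Hk2 share of airway-like hexokinase, 63.0%, became 70.8% with seed 1, 69.4% at resolution 0.3 and 69.8% with 30 components. It became 74.9% and 70.6% with the cell-cycle or metabolic lists kept, and 71.1% with stricter cell filters. Each of these airway-like classes held more cells than the main 639, from 714 to 1003. The Hk2 share became 81.0% in alveolar type 2-like and 81.7% in Smoc2-led cells of at most 14000 UMIs, and 81.2% in thinned Smoc2-led cells. Variance over mean of the summed genes scales with depth: at 3000 and 8000 UMIs it was 3.45 and 6.57 in airway-like, 2.39 and 4.94 in distal progenitor-like, 1.80 and 3.21 in alveolar type 2-like and 2.19 and 4.05 in Smoc2-led cells. The cause of the other shifts was not tested. Resolution 0.3, cell-cycle lists kept, and unscaled components gave no alveolar type 2-like or Smoc2-led class, so those comparisons have no value there. No ratio past 1.5-fold changed its side of 1. With 1 library, no difference between embryos can be read, and Hk1, at 201 UMIs, is limited by depth.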
